A study of Mus musculus with 9 samples.

Results

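Heparan sulfate sulfotransferases are Golgi enzymes that put sulfate groups on heparan sulfate, the sugar chain carried by proteoglycans at the cell surface and in the matrix. The genes described here are Hs3st5, Hs3st1, Hs3st3a1, Hs3st3b1, Hs6st1, Hs6st2, Ndst1, Ndst3 and Hs2st1, which are 9 of the 32285 genes counted, found by their symbols in the gene lists of the count files. They were followed in single-nucleus RNA sequencing of 9 mouse hearts, with 1 library per heart. The set was chosen by measured values: Hs3st5 was selected on its CPM in cardiomyocyte nuclei, which were low after injury and partly back with the drug enpatoran, so its values in those nuclei are given as a description, with no test.

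The hearts came from male wild-type mice aged 9 to 10 weeks, in 3 groups of 3. NS-Sham mice had the chest opened and received normal saline (NS). NS-I/R mice received saline and underwent ischemia-reperfusion (I/R), in which the left anterior descending coronary artery was tied for 45 min and reopened for 24 h. Enpa-I/R mice underwent the same I/R and received enpatoran (Enpa), a drug that blocks TLR7, a receptor for RNA, at 5 mg/kg by intraperitoneal injection. There were 2 injections, the first 1 h before the occlusion, and the sources disagree on the time of the other. The set holds no sham heart given enpatoran, so the drug was measured in injured hearts only. Nuclei came from about 50 mg of powdered heart.

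Heparan sulfate is built on core proteins such as syndecans and glypicans, elongated by Ext1 and Ext2, and then sulfated in steps. The Ndst enzymes replace acetyl by sulfate on the amino group of glucosamine, and the later steps work mostly where they have acted. Hs2st1 sulfates the uronic acid, the Hs6st enzymes sulfate glucosamine at its outer carbon, and the Hs3st enzymes add a rare last sulfate to glucosamine that creates binding sites for particular proteins, among them antithrombin. The pattern of sulfates sets which growth factors, chemokines and coagulation proteins a chain can hold.

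A total of 41979 nuclei were kept from 56766 barcodes, 3160 to 6471 per library, with medians of 2365 to 3263.5 unique molecular identifiers (UMIs, each a counted RNA molecule) per nucleus and totals of 19.7 to 39.0 M UMIs per library. They formed 27 clusters, named from marker genes of 14 cell types. A class is called "cardiomyocyte-like" and so on because the names rest on markers, and 8 classes with enough nuclei in every library were tested. Cardiomyocyte-like nuclei numbered 3297 in NS-Sham, 2939 in hearts with saline and I/R and 3195 with enpatoran, and neutrophil-like nuclei 5, 1368 and 326. The unnamed cluster, led by heat-shock genes and carrying 9 endothelial markers, held 284, 98 and 34 nuclei in the 3 NS-I/R libraries, 10 in Enpa-I/R and none in NS-Sham. NS-I/R replicate 3 stood apart from the other NS-I/R libraries for several genes below. Barcodes found in more than 1 library were 425 of 56340. Levels are UMIs of a gene per 1000000 UMIs of its class (CPM), scaled by the trimmed mean of M values (TMM), n = 3 libraries per group, and ± is the SD. Libraries are always listed in the order of replicates 1, 2 and 3. The 3' counts are not corrected for gene length, so levels are compared between groups and classes and not between genes.

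The enzymes that add the last sulfate are described first. Hs3st5, whose enzyme makes antithrombin-binding and other sites, was a cardiomyocyte gene in these hearts. Its level in cardiomyocyte-like nuclei was 1061, 1308 and 1056 CPM in NS-Sham, 44.3, 45.4 and 107 CPM in NS-I/R, and 317, 345 and 360.3 CPM in Enpa-I/R. The groups did not overlap, and the 3 Enpa-I/R hearts lay close together between the other groups. The means were 1142 ± 144, 65.7 ± 36.1 and 341 ± 22.1 CPM, so NS-Sham was 17.4 times NS-I/R, Enpa-I/R was 5.18 times NS-I/R, and NS-Sham was still 3.35 times Enpa-I/R. Without NS-I/R replicate 3 the NS-I/R mean was 44.8 CPM.

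In UMIs, a cardiomyocyte-like nucleus held on average 12 Hs3st5 UMIs in NS-Sham, 0.694 in hearts with saline and I/R and 3.49 with enpatoran. After every nucleus was thinned to 1000 UMIs, the share with at least 1 Hs3st5 UMI was 55.8% ± 5.36 in NS-Sham, 5.21% ± 3.05 in hearts with saline and I/R and 21.8% ± 0.828 with enpatoran. The shares before thinning were 83.6%, 22.4% and 55.1%. Thinning left out 55, 24 and 36 shallower nuclei. Endothelial-like nuclei, taken as a class that should lack the gene, gave 3.36%, 0.433% and 0.840% after thinning. Median depths before thinning were 6459.5 to 10499 UMIs in cardiomyocyte-like and 1446 to 2036.5 UMIs in endothelial-like nuclei. The cardiomyocyte shares stood above the endothelial ones in every group.

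The other classes held little Hs3st5, and their values moved with the cardiomyocyte level. Of all Hs3st5 UMIs in named and unnamed nuclei, 97.1% in NS-Sham, 94.4% in hearts with saline and I/R and 98.0% with enpatoran were in cardiomyocyte-like nuclei. The NS-Sham means ran from 150.0 ± 134 CPM in smooth muscle-like nuclei through 42.2 ± 18.3 in macrophage-like, 33.6 ± 20.3 in endothelial-like, 21.5 ± 17.5 in pericyte-like, 18.6 ± 10.8 in fibroblast-like and 18.1 ± 16.2 in endocardial-like to 11.4 ± 9.97 in lymphatic endothelial-like nuclei. Below cardiomyocytes, no neighbours in that order had separate ranges. In NS-I/R these means lay between 1.5 and 4.76 CPM, and in Enpa-I/R between 4.69 and 23.2 CPM. The smooth muscle value rested on few nuclei: 1 nucleus held 73.9% of the UMIs in NS-Sham replicate 1. Summed UMIs of the 10 cardiomyocyte markers were also present in these classes, for example 7372 to 7701 CPM in endothelial-like nuclei of NS-Sham, 3362 to 3867 CPM in hearts with saline and I/R and 4355 to 5987 CPM with enpatoran, with no marker at 0. Per 1000 cardiomyocyte marker UMIs, the Hs3st5 UMIs were 17.1, 1.48 and 5.45 in cardiomyocyte-like nuclei of the sham, saline I/R and enpatoran groups, and 5.11, 0.821 and 1.78 in endothelial-like nuclei. How much of the signal outside cardiomyocytes is free cardiomyocyte RNA was not tested.

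**Figure D1:**
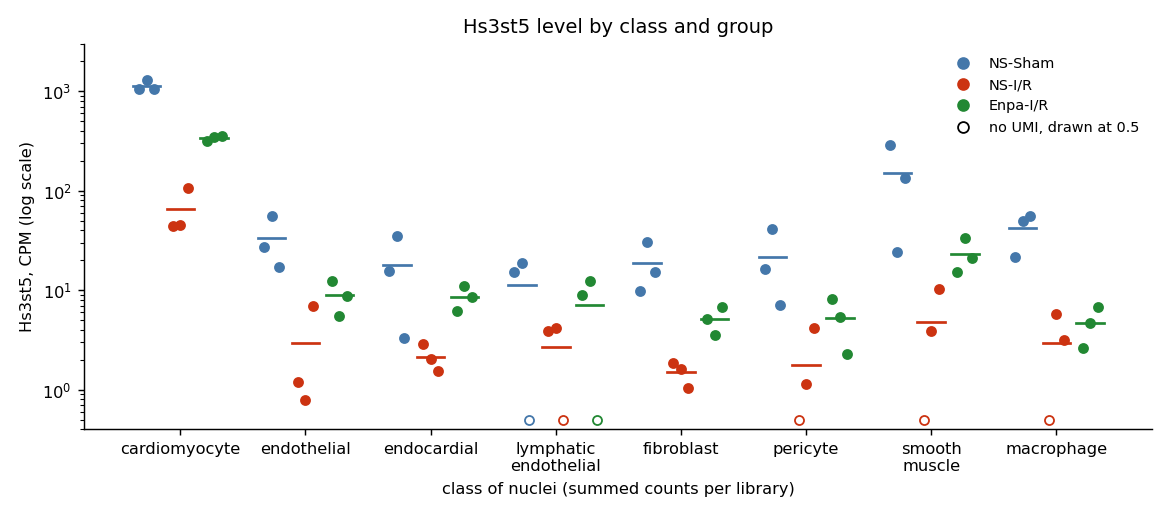
Hs3st5 level in each tested class. The y axis is CPM on a log scale, each point is 1 library, the line is the mean of 3 libraries, and open circles at the bottom are libraries with no UMI. Cardiomyocyte-like nuclei are far above the rest in all 3 groups (1142, 65.7 and 341 CPM on average), and the other classes follow the same order of groups on average.

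The difference was present inside single clusters of cardiomyocyte-like nuclei, where CPM is of the UMIs of the cluster, without TMM. In cluster 2, Hs3st5 was 1129, 1311 and 1114 CPM in NS-Sham, 80.2, 90.0 and 221 CPM in NS-I/R, and 545, 579 and 542 CPM in Enpa-I/R. In cluster 0 it was 899, 1115 and 835 CPM, 96.3, 59.5 and 236 CPM, and 409.8, 391 and 323 CPM. The groups did not overlap in either cluster, and NS-I/R replicate 3 was the highest NS-I/R library in both. Cluster 20, which held 3 NS-Sham nuclei in all, had lower levels than clusters 2, 0 and 1 in every injured heart, at 24.4, 24.6 and 19.4 CPM in NS-I/R and 38.1, 34.7 and 51.5 CPM in Enpa-I/R. The small cluster 3 gave 81.9 CPM in NS-I/R replicate 2 and 66.0 and 7.54 CPM in Enpa-I/R replicates 1 and 2, the other libraries having too few of its nuclei. The make-up of the class moved as well: cluster 2 was 76.8% of cardiomyocyte-like nuclei in NS-Sham, 11.5% in hearts with saline and I/R and 38.4% with enpatoran, while cluster 20 was 0.091%, 51.2% and 19.9%. Cardiomyocyte markers themselves differed, with a summed level of 65918 to 71008 CPM in NS-Sham, 38717 to 53469.6 CPM in hearts with saline and I/R and 58192 to 64394 CPM with enpatoran, a narrower spread than that of Hs3st5.

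**Figure D2:**
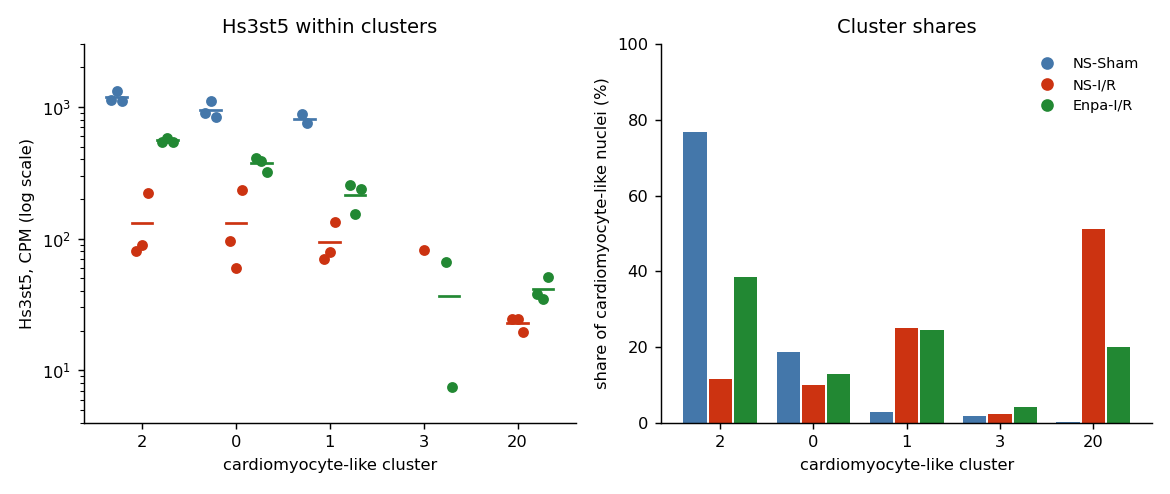
Hs3st5 within the 5 cardiomyocyte-like clusters. Left, CPM on a log scale, with 1 point per library that has at least 25 nuclei in the cluster and the mean as a line. Right, the share of cardiomyocyte-like nuclei in each cluster by group, as bars. Hs3st5 is lowest in NS-I/R within clusters 2, 0 and 1, and nuclei sit mostly in cluster 2 in NS-Sham (76.8%) and in cluster 20 in NS-I/R (51.2%).

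Over the 72 class-by-library sums, the genes whose log2(CPM + 1) followed Hs3st5 most closely were Mhrt (r = 0.905), Pln (0.892), Myom2 (0.878), Rbm20 (0.876) and Cpeb3 (0.875), among 7277 genes compared. These points share libraries and are dominated by the step between cardiomyocytes and other classes, so r is a description. Mhrt is a noncoding RNA of the cardiac myosin locus, Pln encodes the calcium pump regulator phospholamban, Myom2 a sarcomere protein, and Rbm20 a cardiac splicing factor. Their cardiomyocyte means were lower in NS-I/R than in NS-Sham by smaller ratios: Pln was 1764 ± 42.1 CPM in NS-Sham, 708 ± 328 CPM in hearts with saline and I/R and 1418 ± 35.8 CPM with enpatoran. Mhrt was 1783 ± 83.8, 545 ± 32.7 and 663 ± 63.7 CPM.

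The promoter of Hs3st5 is shown beside those of Hs3st3a1 and Hs3st3b1, whose counts moved in opposite directions in macrophages. The sequences are the 250 bases before the RefSeq start in GRCm38.p6, read on the strand of the gene, at chr10:36506557-36506806 (plus strand) for Hs3st5, chr11:64435082-64435331 (plus) for Hs3st3a1 and chr11:63922285-63922534 (minus) for Hs3st3b1. Capitals mark letters that match any of 6 short motifs on either strand; no matches overlap.
Hs3st5: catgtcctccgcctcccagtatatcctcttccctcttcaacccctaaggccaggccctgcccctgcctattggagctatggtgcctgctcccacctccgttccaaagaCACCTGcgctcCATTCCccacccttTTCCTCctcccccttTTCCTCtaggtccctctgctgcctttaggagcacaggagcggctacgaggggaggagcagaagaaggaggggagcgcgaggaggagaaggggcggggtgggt
Hs3st3a1: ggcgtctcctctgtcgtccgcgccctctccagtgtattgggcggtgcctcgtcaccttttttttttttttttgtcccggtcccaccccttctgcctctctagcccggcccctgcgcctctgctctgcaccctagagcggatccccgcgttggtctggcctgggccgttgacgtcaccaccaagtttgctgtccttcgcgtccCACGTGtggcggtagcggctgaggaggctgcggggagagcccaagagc
Hs3st3b1: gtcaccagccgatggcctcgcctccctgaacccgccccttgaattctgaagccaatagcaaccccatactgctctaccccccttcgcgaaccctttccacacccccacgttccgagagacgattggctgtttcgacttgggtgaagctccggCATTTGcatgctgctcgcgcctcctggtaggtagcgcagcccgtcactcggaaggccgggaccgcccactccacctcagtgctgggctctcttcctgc
The Hs3st5 window held 1 E-box (CANNTG), the site of bHLH factors, 1 match to the site of TEAD factors, CATTCC, and 2 matches to the core of the PU.1 site, GAGGAA. The Hs3st3a1 and Hs3st3b1 windows held 1 E-box each and no other match. No match to the GATA factor site, AGATAA, to the AP-1 site, TGANTCA, or to the TATA box, read as TATAAA, was in these windows. The shares of 32851 RefSeq promoters of the same length that hold each motif are 66.2% for the E-box, 12.6% for TEAD, 23.3% for PU.1, 9.99% for GATA, 6.75% for AP-1 and 12.4% for the TATA box. GC content was 62%, 64% and 62.4% and CpG pairs numbered 8, 20 and 17, against medians of 52.4% and 6 over all promoters. RefSeq promoters were read for 8 of the 9 genes, and Ndst1 was left out of this step. A match describes letters only.

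Hs3st3a1 and Hs3st3b1 encode closely related enzymes of one subfamily, with genes on the same chromosome. In macrophage-like nuclei they changed in opposite directions. Hs3st3a1 was 102, 96.9 and 95.4 CPM in NS-Sham, 13.8, 7.65 and 17.2 CPM in NS-I/R, and 23.6, 41.1 and 21.5 CPM in Enpa-I/R. All 3 groups were separate, with Enpa-I/R nearer to NS-I/R than to NS-Sham. Hs3st3a1 fell by 2.89 on the log2 scale in NS-I/R against NS-Sham (SE 0.30, edgeR quasi-likelihood F test, p adjusted by Benjamini-Hochberg = 3.55e-06). It remained lower in Enpa-I/R than in NS-Sham, by a log2 change of -1.74 (SE 0.27, adjusted p = 0.000424). The rise from NS-I/R to Enpa-I/R was 1.15 (SE 0.32, adjusted p = 0.0432) and was lost, with adjusted p between 0.057 and 0.246, without any single NS-Sham library, replicate 1 or 2 of NS-I/R, or replicate 1 or 2 of Enpa-I/R.

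Hs3st3b1 in the same nuclei was 6.59, 4.95 and 5.30 CPM in NS-Sham, 67.2, 62.2 and 26.6 CPM in NS-I/R, and 8.74, 12.4 and 7.92 CPM in Enpa-I/R. Every NS-I/R library was above every other library, replicate 3 least so. Hs3st3b1 rose by 3.19 on the log2 scale in NS-I/R (SE 0.45, edgeR adjusted p = 7.13e-05) and was lower by a log2 change of -2.37 in Enpa-I/R than in NS-I/R (SE 0.36, adjusted p = 0.00199). Enpa-I/R and NS-Sham did not differ by the test (log2 change 0.82, 95% interval -0.36 to 2.00, adjusted p = 0.351). Every Enpa-I/R library was nevertheless above every NS-Sham library. These were 2 of the 5 family genes other than Hs3st5 tested in macrophage-like nuclei, where 34.8% of all genes were called in NS-I/R minus NS-Sham, 6.27% with enpatoran against NS-I/R and 17.5% with enpatoran against NS-Sham. The counts behind these values were small: Hs3st3a1 had 196, 46 and 99 UMIs in the 3 groups and Hs3st3b1 had 11, 177 and 33.

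After thinning to 1000 UMIs, Hs3st3a1 was seen in 7.89% of macrophage-like nuclei in NS-Sham, 1.15% in hearts with saline and I/R and 2.69% with enpatoran, against 0.355%, 0.0355% and 0.152% of endothelial-like nuclei. Hs3st3b1 was seen in 0.244%, 4.59% and 1.35% of macrophage-like nuclei, against 0.236%, 0.318% and 0.101% of endothelial-like nuclei. Unthinned shares in macrophage-like nuclei were 13.8%, 2.37% and 5.37% for Hs3st3a1 and 0.764%, 7.96% and 1.89% for Hs3st3b1. Thinning left out 103, 189 and 110 macrophage-like nuclei, and median depths were 1902.5 to 3241 UMIs in macrophage-like nuclei.

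Macrophage-like nuclei fell into clusters 13 and 14, and cluster 13 held 93.0% of them in NS-Sham, 48.8% in hearts with saline and I/R and 63.6% with enpatoran. Within cluster 13, Hs3st3a1 was 94.5, 97.2 and 96.4 CPM in NS-Sham, 24.0, 14.9 and 41.6 CPM in NS-I/R, and 36.1, 64.0 and 33.7 CPM in Enpa-I/R. Hs3st3a1 was thus lower in all injured hearts within that cluster, while NS-I/R and Enpa-I/R overlapped. In cluster 14 it was 1.80, 0 and 1.30 CPM in NS-I/R and 2.39, 2.07 and 0 CPM in Enpa-I/R. Hs3st3b1 in cluster 13 was 7.13, 5.06 and 2.83 CPM in NS-Sham, 68.9, 55.8 and 11.9 CPM in NS-I/R, and 1.39, 12.3 and 8.87 CPM in Enpa-I/R. In cluster 14 it was 63.1, 67.9 and 36.4 CPM in NS-I/R and 21.5, 12.4 and 6.04 CPM in Enpa-I/R. So Hs3st3b1 was high in both clusters of NS-I/R replicates 1 and 2, and in replicate 3 mainly in cluster 14. In cluster 13 the 11.9 CPM of NS-I/R replicate 3 lay inside the Enpa-I/R range. Neutrophil-like nuclei held 7.83, 3.48 and 3.44 CPM of Hs3st3b1 in NS-I/R, below the macrophage level. The summed level of 8 neutrophil markers in macrophage-like nuclei was 66.3 to 83.3 CPM in NS-Sham, with S100a8, Retnlg, Mmp8 and Ly6g at 0, 404 to 970.0 CPM in hearts with saline and I/R and 231 to 257 CPM with enpatoran.

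**Figure D3:**
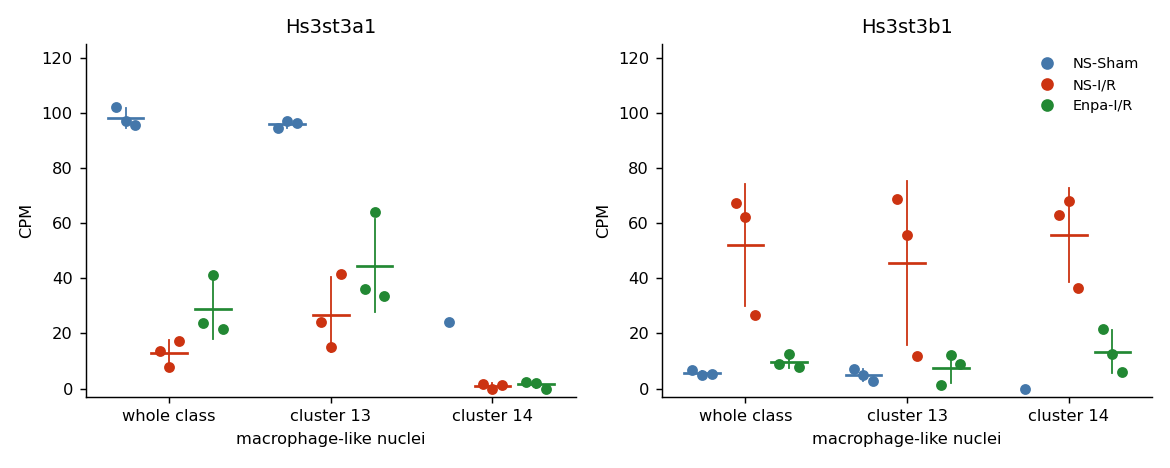
Hs3st3a1 (left) and Hs3st3b1 (right) in macrophage-like nuclei. The y axis is CPM, each point is 1 library, and the line and bar are the mean and SD, for the whole class and for clusters 13 and 14 (libraries with at least 25 nuclei in the cluster). Hs3st3a1 is high in NS-Sham (95.4 to 102 CPM over the class) and Hs3st3b1 in NS-I/R (26.6 to 67.2 CPM).

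In fibroblast-like nuclei, Hs3st3a1 was 80.1, 134 and 94.0 CPM in NS-Sham, 34.8, 45.6 and 52.3 CPM in NS-I/R, and 64.9, 58.0 and 77.9 CPM in Enpa-I/R, without overlap between groups over the whole class. It fell by 1.22 on the log2 scale in NS-I/R (SE 0.21, edgeR adjusted p = 0.000546). Of all genes in this class, 46.7% were called in NS-I/R minus NS-Sham, 9.74% with enpatoran against NS-I/R and 24.3% with enpatoran against NS-Sham. Enpa-I/R lay between: it was lower than NS-Sham by a log2 change of -0.63 (adjusted p = 0.0406, lost at 0.0553 to 0.241 without NS-Sham replicate 2 or 3 or any single Enpa-I/R library), and its difference from NS-I/R, 0.59, had adjusted p = 0.0852, or 0.0119 without NS-I/R replicate 3. The adjusted p of the difference from NS-I/R ran up to 0.276 in other alternative fits with edgeR or DESeq2. The separation of NS-Sham from the other groups did not hold within cluster 9, the main sham cluster. In cluster 9, Hs3st3a1 was 77.1, 129.5 and 93.6 CPM in NS-Sham, 48.6, 66.6 and 80.5 CPM in NS-I/R, and 87.2, 86.7 and 93.6 CPM in Enpa-I/R, where the enpatoran hearts lay inside the sham range and NS-I/R replicate 3 above the lowest sham heart. Cluster 11, nearly absent from NS-Sham, held 25.2, 25.4 and 41.5 CPM in NS-I/R and 46.8, 36.5 and 68.6 CPM in Enpa-I/R. In fibroblast-like nuclei Hs3st3b1 had group means of 8.02 ± 2.15, 6.52 ± 1.35 and 7.99 ± 1.66 CPM.

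In pericyte-like nuclei, where 24% of all genes were called in NS-I/R minus NS-Sham, 6.08% with enpatoran against NS-I/R and 5.24% with enpatoran against NS-Sham, Hs3st3b1 was 53.0, 54.7 and 59.1 CPM in NS-Sham, 19.1, 32.8 and 37.4 CPM in NS-I/R, and 36.7, 18.9 and 27.5 CPM in Enpa-I/R. NS-Sham was above every injured heart, and the injured groups overlapped. The neutrophil markers given below for Ndst1 moved in this class as well. The fall in NS-I/R was 0.88 on the log2 scale, a change of -0.88 (SE 0.27, edgeR adjusted p = 0.0276), and the call was lost at adjusted p of 0.0543 to 0.132 without any single NS-Sham library or NS-I/R replicate 1 or 2. Enpa-I/R minus NS-I/R was -0.09 (95% interval -0.72 to 0.53). Hs3st3a1 in the same nuclei was 15.1, 41.7 and 19.7 CPM in NS-Sham, 14.3, 26.0 and 16.6 CPM in NS-I/R, and 11.2, 26.9 and 18.3 CPM in Enpa-I/R, with overlapping groups (NS-I/R change -0.54, 95% interval -1.38 to 0.30, adjusted p = 0.354), and the difference between the genes was not tested. In endocardial-like nuclei Hs3st3b1 had means of 33.1 ± 21.2, 26.99 ± 3.58 and 23.0 ± 8.78 CPM, and Hs3st3a1 at most 21.9 CPM in any library. Across cardiomyocyte-like, endothelial-like and smooth muscle-like nuclei, Hs3st3a1 was at most 7.24 CPM and Hs3st3b1 at most 5.18 CPM in any library. In lymphatic endothelial-like nuclei their highest values were 4.66 and 13.98 CPM. Because the genes are close copies in part of their sequence, reads that fit both cannot be told apart here.

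Hs3st1, which makes the antithrombin-binding site in vessels, had its highest mean in endocardial-like nuclei in each group and was near 1 CPM in cardiomyocyte-like nuclei. In endocardial-like nuclei Hs3st1 was 112, 131 and 23.4 CPM in NS-Sham, 48.6, 30.9 and 70.9 CPM in NS-I/R, and 72.8, 109.6 and 106 CPM in Enpa-I/R. The low NS-Sham replicate 3 made the sham range span that of NS-I/R, and no comparison passed (NS-I/R minus NS-Sham -0.88, adjusted p = 0.188). In fibroblast-like nuclei Hs3st1 was 56.2, 34.3 and 49.3 CPM, then 62.7, 51.8 and 33.1 CPM, then 36.6, 24.2 and 21.2 CPM, with an Enpa-I/R minus NS-I/R change of -0.83 that missed the threshold (edgeR adjusted p = 0.07). In endothelial-like nuclei its means were 23.7 ± 2.76, 25.4 ± 2.49 and 24.0 ± 4.77 CPM, and the change in NS-I/R was 0.09 with a 95% interval of -0.31 to 0.50. Hs3st1 was at most 4.16 CPM in any library of pericyte-like, 12.1 CPM of smooth muscle-like and 9.05 CPM of macrophage-like nuclei.

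Ndst1, the widely expressed enzyme that starts sulfation, rose in fibroblast-like, endothelial-like and pericyte-like nuclei of NS-I/R hearts and was called in no other class. In fibroblast-like nuclei Ndst1 was 76.8, 65.9 and 71.9 CPM in NS-Sham, 127, 136 and 112 CPM in NS-I/R, and 99.5, 92.7 and 88.2 CPM in Enpa-I/R. The groups did not overlap and Enpa-I/R lay in the middle. The rise in NS-I/R was 0.81 on the log2 scale (SE 0.12, edgeR adjusted p = 0.000212), and Ndst1 in Enpa-I/R remained above NS-Sham by 0.39 (SE 0.12, adjusted p = 0.0332) and below NS-I/R by a change of -0.42 (SE 0.12, adjusted p = 0.0446). Both Enpa-I/R calls sat at the threshold: the one against NS-I/R was lost at 0.0572 to 0.176 in 8 of the 9 fits that left out a library, all but that without NS-I/R replicate 3, and the one against NS-Sham at 0.0506 to 0.127 without any NS-Sham library or Enpa-I/R replicate 1 or 2. In endothelial-like nuclei Ndst1 was 64.0, 46.8 and 40.3 CPM in NS-Sham, 81.7, 75.8 and 80.3 CPM in NS-I/R, and 73.6, 58.7 and 81.3 CPM in Enpa-I/R. It rose by 0.66 in NS-I/R (SE 0.17, adjusted p = 0.00956), 1 of 5 family genes called besides Hs3st5 in a class where 35.6% of all genes were called, against 7.06% and 12.7% for enpatoran against NS-I/R and against NS-Sham, while Enpa-I/R spanned most of the range between the groups and did not pass against NS-I/R (-0.15, adjusted p = 0.59) or NS-Sham (0.50, adjusted p = 0.0756).

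The endothelial-like class was made of different clusters in each group, and Ndst1 was not higher in all of them. Cluster 4 was 44.2% of the class in NS-Sham, 3.21% in hearts with saline and I/R and 10.3% with enpatoran. Cluster 25 was 0.322%, 25.8% and 10.3%. The levels that follow leave out cluster 4, which held 35, 13 and 64 nuclei in the NS-I/R libraries. In cluster 6, Ndst1 was 31.7, 30.6 and 36.8 CPM in NS-Sham and 71.0, 67.4 and 77.1 CPM in NS-I/R, and in cluster 7 it was 54.9, 27.2 and 54.8 CPM against 75.4, 73.8 and 61.5 CPM, without overlap in either. In cluster 5 it was 109, 92.1 and 57.8 CPM against 76.6, 92.6 and 102 CPM, and in cluster 18 it was 89.0, 92.1 and 49.2 CPM against 86.0, 101 and 75.1 CPM, with overlapping groups in both. Cluster 25 held 119, 74.7 and 98.3 CPM in NS-I/R. What part of the class difference the change of clusters makes was not tested.

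In pericyte-like nuclei Ndst1 was 41.6, 24.1 and 37.6 CPM in NS-Sham, 72.9, 54.3 and 49.9 CPM in NS-I/R, and 40.8, 24.2 and 33.2 CPM in Enpa-I/R. Enpa-I/R and NS-Sham covered nearly the same range, and every NS-I/R library was above both. The rise in NS-I/R was 0.83 (SE 0.27, edgeR adjusted p = 0.0344), lost at 0.056 to 0.213 without NS-Sham replicate 2 or 3 or NS-I/R replicate 1 or 2. The enpatoran hearts differed from NS-I/R by -0.82 (edgeR adjusted p = 0.0773, or 0.018 without NS-I/R replicate 3 and up to 0.306 in other alternative fits with edgeR or DESeq2). The summed level of the 8 neutrophil markers moved with these values: in pericyte-like nuclei it was 0.605 to 1.65 CPM in NS-Sham, with S100a9, Retnlg, Mmp8, Ly6g and Il1r2 at 0, 98.3 to 499.8 CPM in NS-I/R and 38.9 to 84.9 CPM in Enpa-I/R, with Mmp8 and Ly6g at 0. In fibroblast-like nuclei it was 2.67 to 4.35, then 64.7 to 176, then 30.5 to 36.1 CPM, and in endothelial-like nuclei 0.459 to 2.64, then 103 to 255, then 45.1 to 67.8 CPM. Neutrophil-like nuclei held Ndst1 at 78.3, 111 and 112 CPM in NS-I/R. The part of neutrophil RNA in the Ndst1 values was not tested.

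In the other classes no Ndst1 comparison passed. In smooth muscle-like nuclei it was 177, 138 and 135 CPM in NS-Sham, 105, 97.4 and 124.6 CPM in NS-I/R, and 174, 158 and 138 CPM in Enpa-I/R, with NS-I/R below both other groups (-0.45 against NS-Sham, 95% interval -0.95 to 0.04, edgeR adjusted p = 0.283). In endocardial-like nuclei the means were 100.2 ± 20.3, 94.2 ± 7.99 and 95.8 ± 6.94 CPM, and in macrophage-like nuclei 36.2 ± 10.8, 47.6 ± 7.25 and 42.4 ± 10.7 CPM. In lymphatic endothelial-like nuclei they were 56.7 ± 24.4, 114 ± 19.1 and 65.2 ± 25.5 CPM.

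Cardiomyocyte-like nuclei held Ndst1 at 77.4, 70.1 and 73.1 CPM in NS-Sham, 60.4, 58.1 and 67.3 CPM in NS-I/R, and 66.1, 67.4 and 60.0 CPM in Enpa-I/R. NS-Sham was the highest group, but the change in NS-I/R, -0.25 with a 95% interval of -0.50 to 0.01, did not pass (edgeR adjusted p = 0.103). Within clusters, without TMM, the direction was not uniform. In cluster 2, Ndst1 was 81.1, 68.9 and 74.8 CPM in NS-Sham against 68.5, 57.4 and 81.9 CPM in NS-I/R. In cluster 0 it was 62.8, 87.8 and 74.4 CPM against 52.5, 51.0 and 62.9 CPM. In cluster 1 every NS-I/R library was higher, at 56.9, 60.9 and 62.4 CPM. NS-Sham replicates 1 and 2 had 42.0 and 32.7 CPM there, from 14 and 11 UMIs. The difference between classes was itself tested: the NS-I/R change in Ndst1 was lower in cardiomyocyte-like than in fibroblast-like nuclei by a log2 difference of -1.16 (SE 0.16, edgeR interaction test, adjusted p = 0.00101) and than in endothelial-like nuclei by -0.98 (SE 0.19, adjusted p = 0.00449). Fibroblast-like and endothelial-like nuclei did not differ by that test (0.07, adjusted p = 0.837). Among 22 such tests over the 9 genes and 3 pairs of classes, these were the only 2 called, against backgrounds over all genes of 18.3% for cardiomyocyte against fibroblast, 12.2% for cardiomyocyte against endothelial and 13.3% for fibroblast against endothelial. Hs3st5 was tested only between fibroblasts and endothelium.

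Within fibroblast clusters Ndst1 showed the same order. In cluster 9 it was 73.9, 62.4 and 69.8 CPM in NS-Sham, 97.9, 129 and 92.6 CPM in NS-I/R, and 82.7, 81.6 and 77.4 CPM in Enpa-I/R. In cluster 22 it was 33.1, 38.0 and 52.7 CPM, 99.1, 90.3 and 84.2 CPM, and 70.0, 83.6 and 61.3 CPM. Neither cluster had overlapping groups. Cluster 11, which was 0.435% of fibroblast-like nuclei in NS-Sham, 47.7% in hearts with saline and I/R and 35.1% with enpatoran, had the highest Ndst1, at 162, 158 and 139.8 CPM in NS-I/R and 129, 112 and 105 CPM in Enpa-I/R. Ndst1 overlaps the ribosomal protein gene Rps14 on the other strand, and reads of the pair could be mixed if strand was not used in counting. Rps14 itself changed by 0.52 in fibroblast-like nuclei of NS-I/R (edgeR adjusted p = 0.029) and by 0.23 in endothelial-like nuclei (adjusted p = 0.191). In pericyte-like nuclei of NS-I/R it changed by 0.65 (edgeR adjusted p = 0.0697). The part of Rps14 in the Ndst1 values was not tested.

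Ndst3, a relative with a narrow expression, was low in the tested classes. It was highest in smooth muscle-like nuclei, at 21.1, 31.4 and 17.3 CPM in NS-Sham, 21.0, 15.6 and 31.1 CPM in NS-I/R, and 30.4, 60.4 and 29.98 CPM in Enpa-I/R, with no comparison passing. In fibroblast-like nuclei Ndst3 was 3.28, 6.37 and 4.62 CPM in NS-Sham, 1.33, 1.61 and 2.90 CPM in NS-I/R, and 2.02, 4.19 and 3.24 CPM in Enpa-I/R. These CPM stand for 8, 32 and 9, then 5, 7 and 14, then 9, 14 and 11 UMIs. Ndst3 fell by 1.31 in NS-I/R (SE 0.44, edgeR adjusted p = 0.0278), lost at 0.0566 to 0.187 without NS-Sham replicate 2 or 3 or NS-I/R replicate 1 or 2. In the other tested classes no library was above 6.70 CPM. Schwann-like nuclei, too few to test, held 80 Ndst3 UMIs in 66 nuclei of NS-Sham, 46 in 117 nuclei of NS-I/R and 38 in 68 nuclei of Enpa-I/R. Of the NS-I/R nuclei, 57 were in replicate 2, where a finer clustering left 29.

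Hs2st1, the single enzyme that sulfates the uronic acid, was present in all tested classes, with group means between 59.9 and 192 CPM. In pericyte-like nuclei, which had the highest mean in NS-Sham and Enpa-I/R but not in NS-I/R, with a range that overlapped that of the next class, it was 221, 185 and 170.2 CPM in NS-Sham, 134, 96.2 and 149 CPM in NS-I/R, and 175, 164 and 149 CPM in Enpa-I/R. NS-I/R lay below NS-Sham in every library. The gene shares its strand with overlapping genes, so some reads are uncertain. Hs2st1 fell there by 0.61 on the log2 scale (SE 0.17, edgeR adjusted p = 0.018), lost at 0.0887 and 0.102 without NS-Sham replicate 1 or NS-I/R replicate 2. The enpatoran hearts differed from NS-I/R by 0.37 (edgeR adjusted p = 0.214, or 0.0329 without NS-I/R replicate 3 and up to 0.634 in other alternative fits with edgeR or DESeq2). In fibroblast-like nuclei the NS-I/R change was 0.01 with a 95% interval of -0.30 to 0.32. In the other classes no comparison passed: the means were 128 ± 20.2, 141 ± 24.5 and 158 ± 7.94 CPM in endocardial-like nuclei, 149.6 ± 21.6, 126 ± 4.64 and 162 ± 9.61 CPM in macrophage-like nuclei, and 78.1 ± 1.46, 85.4 ± 5.35 and 89.0 ± 9.50 CPM in endothelial-like nuclei.

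In cardiomyocyte-like nuclei Hs2st1 was 93.3, 82.5 and 91.7 CPM in NS-Sham, 67.2, 75.5 and 85.9 CPM in NS-I/R, and 64.9, 77.1 and 61.7 CPM in Enpa-I/R. Both injured groups were lower on average and neither passed (NS-I/R -0.23, adjusted p = 0.198, and Enpa-I/R -0.39 against NS-Sham, adjusted p = 0.0713). The class average hid unlike clusters. In cluster 2, Hs2st1 was 95.5, 80.4 and 94.1 CPM in NS-Sham, 35.2, 38.8 and 63.2 CPM in NS-I/R, and 53.5, 66.7 and 44.7 CPM in Enpa-I/R. In cluster 0 it was 66.7, 101 and 74.4 CPM, 20.4, 17.0 and 47.1 CPM, and 44.9, 45.4 and 36.6 CPM. Both clusters had all injured hearts below all sham hearts. Cluster 20, which held 51.2% of cardiomyocyte-like nuclei in NS-I/R, had 83.0, 101 and 123 CPM in NS-I/R and 92.1, 116 and 81.7 CPM in Enpa-I/R, near the sham level of cluster 2, whereas Hs3st5 was lower there than in clusters 2, 0 and 1.

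Of the enzymes that sulfate glucosamine at its outer carbon, Hs6st1 was highest in macrophage-like nuclei in NS-Sham, where its range was above that of every other class. It overlaps an antisense gene, so its reads are uncertain. Hs6st1 was 84.0, 59.3 and 101 CPM there in NS-Sham, 44.8, 68.9 and 35.2 CPM in NS-I/R, and 57.7, 57.4 and 80.3 CPM in Enpa-I/R. The groups overlapped, and its NS-I/R change of -0.67 did not pass (adjusted p = 0.0652). In the other classes with a test its NS-I/R changes lay between -0.40 and 0.23 and none passed. Outside macrophages no class mean of Hs6st1 was above 25.2 CPM.

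Hs6st2 had its highest mean in fibroblast-like nuclei in each group. In fibroblast-like nuclei Hs6st2 was 37.8, 29.9 and 17.5 CPM in NS-Sham, 80.4, 67.0 and 36.2 CPM in NS-I/R, and 33.2, 49.9 and 30.6 CPM in Enpa-I/R. NS-I/R replicate 3 fell within the sham range. Hs6st2 rose by 1.08 on the log2 scale in NS-I/R (SE 0.31, edgeR adjusted p = 0.0142), lost at 0.0582 and 0.0559 without NS-Sham replicate 3 or NS-I/R replicate 1, and the enpatoran hearts differed from NS-I/R by -0.69 (adjusted p = 0.153, or 0.00346 without NS-I/R replicate 3). The adjusted p of that enpatoran difference ran up to 0.454 in other alternative fits with edgeR or DESeq2. The values split by cluster. In cluster 11, nearly absent from NS-Sham, Hs6st2 was 147, 118 and 64.4 CPM in NS-I/R and 52.6, 86.5 and 51.3 CPM in Enpa-I/R. In cluster 9 it was 36.1, 28.5 and 15.2 CPM in NS-Sham, 20.3, 22.8 and 5.79 CPM in NS-I/R, and 16.4, 4.40 and 13.2 CPM in Enpa-I/R. In cluster 22 it was 19.8, 13.8 and 28.8 CPM in NS-Sham, 24.8, 13.4 and 6.02 CPM in NS-I/R, and 52.5, 155 and 23.6 CPM in Enpa-I/R, the 155 CPM from 37 UMIs. So among NS-I/R hearts the high values were in cluster 11, while in Enpa-I/R replicate 2 cluster 22 was higher still. In endothelial-like nuclei Hs6st2 ranged from 5.78 to 15.9 CPM in sham hearts, 6.07 to 21.1 CPM after I/R with saline and 4.14 to 10.9 CPM with enpatoran, with no call. In cardiomyocyte-like nuclei no library was above 1.11 CPM.

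**Figure D4:**
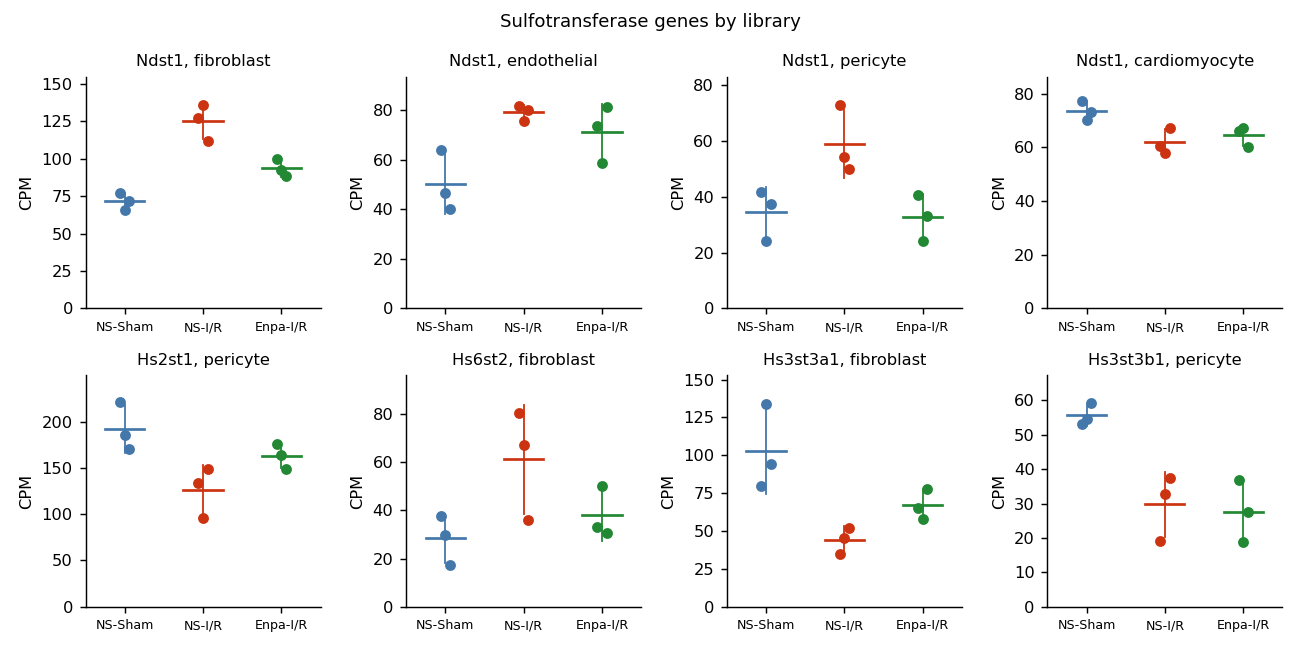
Genes of the family by library in fibroblast-like, endothelial-like and pericyte-like nuclei, with Ndst1 in cardiomyocyte-like nuclei for contrast. Besides Hs3st5, called genes not drawn here are Ndst3 in fibroblast-like nuclei and Hs3st3a1 and Hs3st3b1 in macrophage-like nuclei. Each y axis is CPM from 0, each point is 1 library, and the line and bar are the mean and SD of 3. Ndst1 is highest in NS-I/R in fibroblast-like, endothelial-like and pericyte-like nuclei (means 124.9, 79.3 and 59.0 CPM) but not in cardiomyocyte-like nuclei (61.9 CPM).

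Counted over the 8 tested classes, the 9 genes gave 72 gene and class pairs. Of these, 30 were under the low-count filter and Hs3st5 in cardiomyocyte-like nuclei was not tested, which left 41. NS-I/R minus NS-Sham called 14 of 41 (5 higher and 9 lower), of which 4 were Hs3st5 in endothelial-like, fibroblast-like, smooth muscle-like and macrophage-like nuclei, where its values moved with the cardiomyocyte level. Hs3st5 was picked for its fall after injury, so its calls in any class are not read as results. Without Hs3st5 the comparison called 10 of 37, or 27.03%, against 31.3% over all genes in the same classes, so the family was not called more often than other genes. Without NS-I/R replicate 1 the count was 6. Enpa-I/R minus NS-I/R called 3 of 37 (8.11%, against 7.74%), 11 when NS-I/R replicate 3 was left out, and 1 when replicate 1 or 2 of NS-I/R or of Enpa-I/R was left out. Enpa-I/R minus NS-Sham called 3 of 37 without Hs3st5 (8.11%, against 12.4%), 7 when NS-I/R replicate 3 was left out, and 1 without NS-Sham replicate 2 or 3 or Enpa-I/R replicate 2. The 3 comparisons share samples. Among cardiomyocyte-like nuclei 0 of 4 other family genes were called in any comparison, with 0, 0 and 1 at an unadjusted p under 0.05 and 0, 0 and 1 by DESeq2. Backgrounds there were 45.3%, 18.8% and 18.1% for NS-I/R minus NS-Sham, Enpa-I/R minus NS-I/R and Enpa-I/R minus NS-Sham. Endocardial-like nuclei had 0 of 5 called in each comparison (backgrounds 10.4%, 0.463% and 0.991% in the same order, 1, 1 and 0 at an unadjusted p under 0.05, 0 by DESeq2). Lymphatic endothelial-like nuclei had 0 of 2 (13.5%, 1.13% and 1.26%, with 1, 1 and 0 unadjusted and 0 by DESeq2), and Ndst1 there differed by 1.04 in NS-I/R (edgeR adjusted p = 0.0738). Smooth muscle-like nuclei had 0 of 3 besides Hs3st5 (5.99%, 0% and 0.224%, with 0, 2 and 0 unadjusted and 0 by DESeq2).

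**Figure D5:**
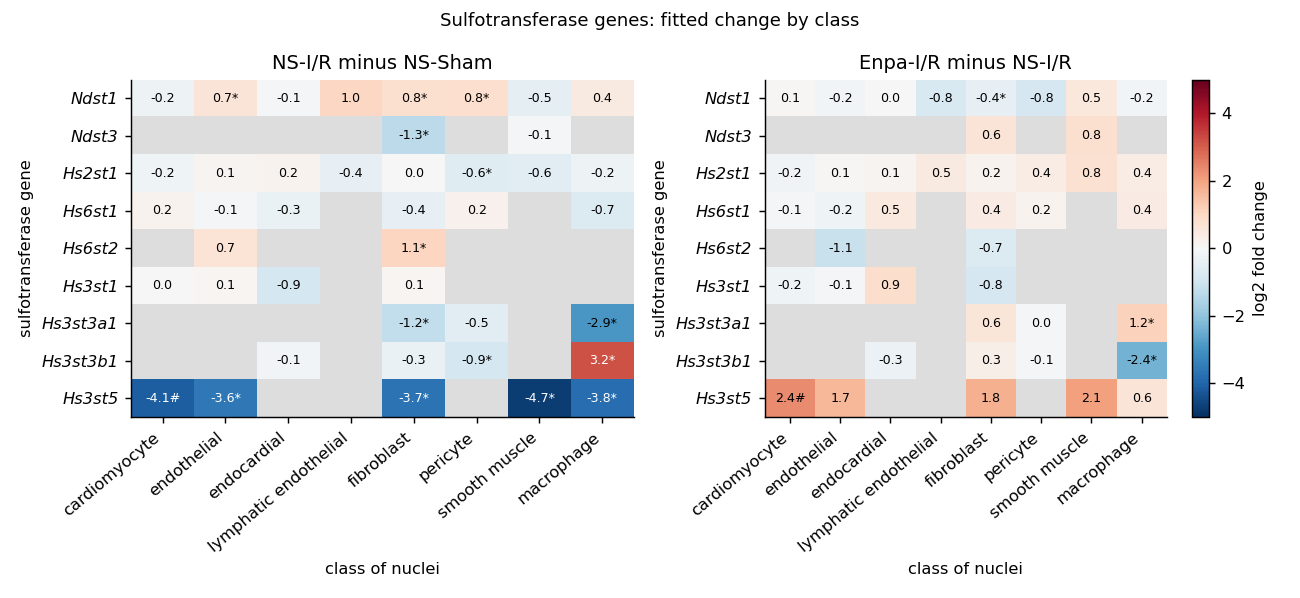
Fitted log2 fold changes of the 9 genes (rows) in the 8 tested classes (columns), for NS-I/R minus NS-Sham on the left, with Enpa-I/R minus NS-I/R on the right. Red is higher, blue is lower, an asterisk marks a call at adjusted p under 0.05, the hash marks Hs3st5 in cardiomyocyte-like nuclei, which was not tested, and grey is under the low-count filter. Asterisks of Hs3st5 in other classes are not read as results, since the gene was picked for its fall after injury. The 2 macrophage changes of Hs3st3a1 (-2.89) and Hs3st3b1 (3.19) have opposite colours and turn about on the right.

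The rest of the pathway was read from a list of 49 genes, of which 48 were in the files: chain starters, polymerases, core proteins, sulfate donors, other sulfotransferases, and enzymes that trim or break down the chain. In cardiomyocyte-like nuclei 14 of 42 tested genes changed in NS-I/R (7 higher and 7 lower, 33.3%, against 45.3%), or 22 without NS-I/R replicate 3. The list's median log2 change was -0.06, against 0.01 over all genes. Ext1, a polymerase of the chain, fell from 752 ± 115 to 242 ± 10.5 CPM (log2 change -1.64, SE 0.15, edgeR adjusted p = 3.98e-05) and was 377 ± 46.3 CPM in Enpa-I/R, still lower than NS-Sham by -0.996 (adjusted p = 0.00172). Gpc1, a glypican core protein, was 66.3 ± 15.9, 23.2 ± 10.7 and 51.2 ± 6.27 CPM, a fall of 1.51 (a change of -1.51, adjusted p = 0.00225) and a rise with enpatoran of 1.14 (adjusted p = 0.0273). Hspg2, the core protein perlecan of basement membranes, rose from 92.5 ± 13.3 to 204 ± 2.56 CPM (1.14, adjusted p = 0.000105). Ndst2, another enzyme that starts sulfation, rose from 7.77 ± 1.62 to 16.4 ± 4.94 CPM (1.07, adjusted p = 0.0054) and was 8.14 ± 0.253 CPM in Enpa-I/R (-1.01 against NS-I/R, adjusted p = 0.024). Enpa-I/R minus NS-I/R called 7 of 42 (16.7%, against 18.8%), 22 without NS-I/R replicate 3 and 0 or 1 without any other single injured library.

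In fibroblast-like nuclei 19 of 41 pathway genes changed in NS-I/R (7 higher and 12 lower, 46.3%, against 46.7%). Of 13 core proteins tested, 2 were higher and 7 lower. Sdc4, a syndecan that holds growth factors and chemokines at the cell surface, was 15 ± 4.94 CPM in NS-Sham, 114 ± 49.3 CPM in hearts with saline and I/R and 50.8 ± 3.21 CPM with enpatoran. It rose by 3.00 in NS-I/R (SE 0.35, edgeR adjusted p = 3.72e-05) and was lower with enpatoran by -1.16 (adjusted p = 0.0328). Sdc2, another syndecan, went the other way, at 1014 ± 99.6, 309 ± 21.9 and 513 ± 14.7 CPM (-1.71, adjusted p = 7.84e-07, then 0.73, adjusted p = 0.00953). Gpc6, a glypican, was 5731 ± 323, 1523 ± 849 and 3415 ± 308 CPM (-1.91, adjusted p = 0.000208, then 1.16, adjusted p = 0.0269). Enpa-I/R minus NS-I/R called 4 of 41 (9.76%, against 9.74%), 16 without NS-I/R replicate 3 and 0 to 2 without NS-Sham replicate 1 or any other single injured library.

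In endothelial-like nuclei 16 of 35 pathway genes changed in NS-I/R (6 higher and 10 lower, 45.7%, against 35.6%). Col18a1, a basement membrane core protein, rose from 15.3 ± 5.73 to 84.6 ± 27.7 CPM (2.54, SE 0.28, edgeR adjusted p = 2.09e-05). Sulf2, which removes sulfates from finished chains outside the cell, rose from 12.4 ± 4.82 to 32.2 ± 3.85 CPM (1.30, adjusted p = 0.00114). Papss2, which makes the sulfate donor that all sulfotransferases use, fell from 227 ± 22.2 to 99.2 ± 5.86 CPM (-1.19, adjusted p = 2.3e-05) and was 148 ± 22.8 CPM in Enpa-I/R (0.58 against NS-I/R, adjusted p = 0.025). Sulf1, the partner of Sulf2, was lower in Enpa-I/R than in NS-I/R, at 105 ± 16.4 against 200.2 ± 49.0 CPM (-0.93, adjusted p = 0.00883). Enpa-I/R minus NS-I/R called 3 of 35 (8.57%, against 7.06%), 10 without NS-I/R replicate 3 and 0 or 1 without replicate 1 or 2 of NS-I/R or replicate 2 or 3 of Enpa-I/R.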

How the data were processed

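Single-nucleus RNA was sequenced from 9 hearts, 1 library each, with the 10x 3' v3.1 chemistry, per the labels' protocols. The deposited matrices hold counts of UMIs per gene and barcode, made by the authors with Cell Ranger; its version is 8.0.0 per the file headers and 6.1.1 per the submitters' processing notes, which also name Seurat, GRCh38 and GRCm39. The annotation, use of introns, strand and barcode filter are not given in the sources used here.

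Barcodes with at least 500 genes and at most 5% mitochondrial UMIs were kept, and the top 0.8% of Scrublet doublet scores per 1000 barcodes was removed, 133 to 538 barcodes in each library, where the threshold Scrublet sets itself marked 0 to 308. Clusters (scanpy 1.11.5; 2000 variable genes without the family, its pathway, mitochondrial and sex genes; 30 components, 15 neighbours, Leiden resolution 1) were named from marker lists where at least 3 markers were raised. A named cluster led the next type by at least 0.5 on the log2 scale. Counts were summed per class and library and tested with edgeR 4.0.16 (R 4.3.3; low counts removed by filterByExpr, TMM scaling, the quasi-likelihood test, p adjusted by Benjamini-Hochberg per class and comparison, threshold 0.05), in 1 fit of all 9 libraries per class without covariates. A class needed 25 nuclei in every library. SE was obtained by dividing the size of the log2 change by √F. All p-values measure the spread between these libraries, which are single hearts. Tested on simulated data in which 200 genes had a log2 change of 1, the fit called 50% of them in cardiomyocyte-like nuclei, 61.5% in fibroblast-like, 51% in macrophage-like, 61.5% in endothelial-like and 46% in pericyte-like nuclei. Unchanged genes called numbered 2 to 8 per class. The simulation changed 200 of 9377 to 13992 genes, whereas 24% to 46.7% were called in the real NS-I/R minus NS-Sham comparison of these classes. The adjusted p depends on that share, so these values do not give the sensitivity of the real fits.

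The 9 genes and the pathway and marker lists were chosen with earlier results of these data known. All 9 were named by rule in every tested class, the low ones by their highest value or range; of the pathway list, up to 4 called genes per class and comparison with the largest change and at least 10 CPM could be named, and the 5 genes most like Hs3st5 had at least 10 CPM in cardiomyocyte-like nuclei, leaving out predicted and mitochondrial genes. DESeq2 1.42.0, the low-count filter, doublets, the mitochondrial limit, a finer clustering, a replicate block and leaving out each library were tried as alternatives. Promoters are from RefSeq (GRCm38.p6). Gene overlaps were read from the GENCODE vM21 gene models of GRCm38, whose coordinates are not printed, and proteins were not used here.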

Additional observations from a re-analysis of the deposited data

Results flagged for a closer look

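The response of Ndst1 to I/R differed between classes by an interaction test over the summed counts. Its NS-I/R minus NS-Sham change was lower in cardiomyocyte-like than in fibroblast-like nuclei by a log2 difference of -1.16 and lower than in endothelial-like nuclei by -0.98. The changes within the classes were -0.25 in cardiomyocyte-like, 0.81 in fibroblast-like and 0.66 in endothelial-like nuclei, with the endothelial-like class made of different clusters in each group (cluster 4 was 44.2% of it in sham hearts and 3.21% in NS-I/R hearts, cluster 25 was 0.322% and 25.8%) and overlapping groups in clusters 5 and 18. Within cardiomyocyte-like nuclei the direction also varied: the groups overlapped in clusters 2 and 0. In cluster 1 Ndst1 was higher in every NS-I/R library, with only 14 and 11 UMIs in NS-Sham replicates 1 and 2. Both differences between classes were called in every fit that left out 1 NS-Sham or NS-I/R library. They were the only 2 called of 22 such tests, against 18.3%, 12.2% and 13.3% of all genes in the 3 pairs of classes. Ndst1 shares its locus with Rps14 on the other strand. The summed level of 8 neutrophil markers in NS-I/R was 25.7 to 80.0 CPM in cardiomyocyte-like nuclei. It was 64.7 to 176 CPM in fibroblast-like and 103 to 255 CPM in endothelial-like nuclei. The parts of Rps14 and of neutrophil RNA in the differences were not tested.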

How the results depend on the processing

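Of 16 calls for the family genes other than Hs3st5, 7 were lost under no alternative. Shared replicate numbers did not pair the hearts: the correlations of same-numbered libraries ran from -0.199 to 0.072 over 9 pairs, none over 0.1. With the replicate block, 14, 4 and 7 gene and class pairs were called in NS-I/R minus NS-Sham, Enpa-I/R minus NS-I/R and Enpa-I/R minus NS-Sham; Ndst1 in fibroblast-like (adjusted p = 0.0504, edgeR) and Hs3st3a1 in macrophage-like nuclei (0.0684) lost their Enpa-I/R minus NS-I/R call and Ndst1 in pericyte-like nuclei gained one (0.0494). For Enpa-I/R minus NS-I/R, against 3 called, there were 9 without the low-count filter (7 besides Hs3st5), 5 with the DESeq2 Wald test and 5 with doublets kept; pathway genes called without the filter were 9 in fibroblast-like and 5 in endothelial-like nuclei. For Enpa-I/R minus NS-Sham, against 6 with Hs3st5 counted, there were 12 without the filter (7 besides Hs3st5, against 3), and 5 besides Hs3st5 with DESeq2. Mean Hs3st5 in cardiomyocyte-like nuclei of Enpa-I/R was 304 CPM with a mitochondrial limit of 20%. Without thinning, shares of nuclei with a UMI were 83.6%, 22.4% and 55.1% for Hs3st5 in cardiomyocyte-like, 13.8%, 2.37% and 5.37% for Hs3st3a1 and 0.764%, 7.96% and 1.89% for Hs3st3b1 in macrophage-like nuclei. Hs3st3b1 in pericyte-like nuclei, Enpa-I/R minus NS-I/R, changed sign to 0.063 with doublets kept and ran from -0.35 to 0.12 when 1 library was left out (0.12 without NS-I/R replicate 3, 0.11 without Enpa-I/R replicate 2); the cause was not tested. Leaving out 1 library gave 6 to 15 calls besides Hs3st5 in NS-I/R minus NS-Sham, 1 to 12 over all 9 genes and 1 to 11 besides Hs3st5 for enpatoran against NS-I/R, and 3 to 11 and 1 to 7 in Enpa-I/R minus NS-Sham. Pathway calls ran from 11 to 22 in cardiomyocyte-like nuclei in NS-I/R minus NS-Sham, from 0 to 22 there, 0 to 16 in fibroblast-like and 0 to 10 in endothelial-like nuclei for enpatoran against NS-I/R, and from 3 to 12 in cardiomyocyte-like nuclei in Enpa-I/R minus NS-Sham. The highest of these came without NS-I/R replicate 3. Few UMIs limit Ndst3, Hs3st3b1 and every small class.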

Other observations

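Several values rested wholly or in part on single nuclei. In mesothelial-like nuclei of NS-Sham, Hs3st5 had 49, 138 and 29 UMIs in the 3 libraries, and 1 nucleus held 71.4% to 96.6% of them. In T or NK-like nuclei of NS-Sham, 34 of 34 Hs3st5 UMIs in 1 library and 44 of 46 in another were in 1 nucleus. Hs6st2 in macrophage-like nuclei was 54.4 CPM in NS-Sham replicate 1 and at most 2.65 CPM in the other libraries, and 1 nucleus held 75.8% of the 33 UMIs of that library. In pericyte-like nuclei Hs6st2 was 40.6 and 61.1 CPM in NS-I/R replicates 1 and 2 and at most 4.56 CPM elsewhere. In those NS-I/R libraries 1 nucleus held 29.4% and 35.2% of the UMIs, and most were in other nuclei.

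Ndst3 had its highest summed level in Schwann-like nuclei, at 367 CPM in NS-Sham, 87.7 CPM in NS-I/R and 183 CPM in Enpa-I/R without TMM, from 66, 117 and 68 nuclei. The nuclei were too few in some libraries for a test. In NS-I/R replicate 2 the class also depended on the clustering. That library held 57 Schwann-like and 17 mesothelial-like nuclei, against 29 and 44 with the finer clustering. How far this moved the NS-I/R value of Ndst3 was not tested. Hs3st1 in lymphatic endothelial-like nuclei was under the low-count filter, so it was not tested. Its levels were 46.3, 37.3 and 60.7 CPM in NS-Sham, 7.81, 16.8 and 13.5 CPM in NS-I/R, and 26.6, 55.6 and 17.8 CPM in Enpa-I/R. Few nuclei stood behind them: 70 in NS-I/R replicate 2 (16.8 CPM) and 57 in Enpa-I/R replicate 3 (17.8 CPM), where the groups nearly met.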
